A study of Rattus norvegicus with 12 samples.

Results

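The 10 genes followed here belong to the integrated stress response, and were measured in stimulated rat vascular smooth muscle cells: Atf4, Ddit3, Trib3, Chac1, Sesn2, Asns, Psat1, Ppp1r15a, Slc7a5 and Slc7a11. They were found as every probe set to which the array annotation gives exactly 1 gene symbol and whose symbol is one of these 10. They are 10 of 14217 genes with such a probe set, and this gave 13 of the 31042 probe sets of the array, 3 of them for Trib3 and 2 for Sesn2. All 13 were bright enough to be tested, among 18625 probe sets that were.

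The integrated stress response starts when a kinase that senses amino acid shortage, unfolded protein in the endoplasmic reticulum, haem shortage or viral RNA phosphorylates the translation factor eIF2. Most translation then slows while that of the Atf4 transcript increases, and the ATF4 protein switches on genes for amino acid synthesis, amino acid uptake and the control of the stress itself. In vascular smooth muscle the pathway is known for its part in growth control and in calcification of the vessel wall. An array measures transcript levels, so the phosphorylation of eIF2 and the amount of ATF4 protein were not measured here.

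The cells were primary cultures of aortic smooth muscle from newborn rats, kept overnight in serum-free medium with albumin. Each of 6 groups had 2 arrays. In the first of 3 experiments, unstimulated (basal) cells were set against cells given thrombin, the clotting protease that activates its receptors by cutting them, at 2 U/ml for 120 min. In the second, basal cells were set against cells given 25 µM of TRAP, a peptide that activates a thrombin receptor without the protease, for 120 min. In the third, cells given 25 µM TRAP for 120 min had first been kept for 24 h with 200 ng/ml pertussis toxin (PTX), which cuts the Gi class of G proteins off from their receptors. For its basal arrays the labels give the agent as none, and whether these cells had PTX is not stated. No animal age beyond newborn, strain or genotype is given in the labels, nor is it stated that the 2 arrays of a group came from separate cultures. The p-values therefore measure only the spread between these arrays.

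All values below are array signals on a linear scale or, for differences, log2(signal + 16), a scale that understates changes of dim probe sets. Brightness depends on the probes, so signals of different probe sets cannot be ranked against each other. Tests were made with limma on all 12 arrays, with Benjamini-Hochberg adjustment over the 18625 probe sets and a threshold of 0.05, and "rose" and "fell" are used only for differences that passed. The contractile genes Acta2, Tagln and Cnn1, markers of the labelled cell type, had mean signals of 7220.5, 5561.3 and 1668.2. The other smooth muscle markers Mylk, Myh11 and Des had 88.33, 50.68 and 28.85. Among fibroblast markers Mfap5 had 5431.3, Pdgfra 239, Lum 98.24 and Pi16 28.2, and Dpt (16.53) was too dim to be tested. The endothelial markers Pecam1 (4.24), Vwf (7.13), Kdr (6.79) and Erg (5.28) and the leukocyte marker Ptprc (4.28) were too dim to be tested, while 1 of 5 endothelial and 2 of 6 leukocyte markers were kept. These were Tek, with signals of 20.1 to 85.7, Cd14, with 296.9 to 578.4, and Csf1r, with 10.2 to 63.2. In bulk RNA, fewer cells of a type and less RNA per cell cannot be told apart.

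The arrays of the TRAP experiments formed 2 sets that cut across their labels, known from earlier results of these data. The acute-phase gene Saa3 had signals of 15.9 to 22.8 in the first set, made up of the basal TRAP arrays, the second TRAP array and the first array of TRAP after PTX. It had 222.5 to 420.9 in the second set, made up of the basal arrays with the PTX label, the first TRAP array and the second array of TRAP after PTX. The proliferation marker Mki67 split the same arrays, at 900.3 to 1096 in the first set and 515.4 to 607.5 in the second. The replicate 1 array of TRAP and that of TRAP after PTX thus stood apart from their own basal arrays. Whether their labels were exchanged cannot be settled here, so the responses to TRAP are also given without these 2 arrays. That fit leaves a single array in each stimulated TRAP group, so its p-values do not measure a spread within these groups.

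Trib3, Chac1 and Sesn2 fell with TRAP. In the TRAP response 4 of the 13 probe sets, of these 3 genes, were lower and 0 higher, where 2.07% of all tested probe sets were lower and 1.84% higher. In the TRAP after PTX response 5 of 13, of the same 3 genes, were lower and 0 higher, against 1.03% lower and 1.68% higher among all tested probe sets. With thrombin none of the 3 genes passed the test. The median log2 change of the 13 probe sets was -0.31 with TRAP, -0.59 with TRAP after PTX and 0.08 with thrombin, beside -0.04, -0.04 and -0.04 for all tested probe sets.

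The sequence just upstream of these 3 genes is shown because they moved together and because ATF4 is known to act on Trib3 and Chac1 through a composite C/EBP-ATF element. The windows are the 250 bases before the annotated transcript start, from RefSeq on the rat build GRCr8, and all 10 genes of the list had one. They run 5′ to 3′ on the gene's strand, at chr3:161275534-161275783 (minus strand) for Trib3, chr3:126795881-126796130 (plus strand) for Chac1 and chr5:150005256-150005505 (minus strand) for Sesn2. Capitals mark a match to the element TGATGNAA on either strand.
Trib3: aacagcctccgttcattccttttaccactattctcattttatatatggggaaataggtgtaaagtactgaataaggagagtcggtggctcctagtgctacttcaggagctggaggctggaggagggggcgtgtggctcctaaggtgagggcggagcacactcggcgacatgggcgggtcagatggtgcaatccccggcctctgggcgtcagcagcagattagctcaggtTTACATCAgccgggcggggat
Chac1: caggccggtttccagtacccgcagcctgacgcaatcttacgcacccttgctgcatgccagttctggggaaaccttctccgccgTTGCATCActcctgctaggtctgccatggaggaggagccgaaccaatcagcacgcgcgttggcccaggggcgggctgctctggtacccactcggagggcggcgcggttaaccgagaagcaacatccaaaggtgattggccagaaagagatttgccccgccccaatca
Sesn2: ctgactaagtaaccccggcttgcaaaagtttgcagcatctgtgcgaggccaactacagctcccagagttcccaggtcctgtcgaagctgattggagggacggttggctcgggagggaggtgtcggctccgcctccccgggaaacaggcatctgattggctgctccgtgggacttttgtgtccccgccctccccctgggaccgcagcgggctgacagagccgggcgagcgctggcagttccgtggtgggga

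The match in Trib3 is TTACATCA, which reads as the element on the other strand and begins 21 bases before the start. The match in Chac1 is TTGCATCA, also on the other strand, and begins 167 bases before the start. Of the 10 windows, 2 held the element, against 3.40% of 33469 RefSeq windows of the same length. The Sesn2 window and those of Atf4, Ddit3, Asns, Psat1, Ppp1r15a, Slc7a5 and Slc7a11 held none in these letters. For Asns, Psat1 and Slc7a11 the window lies before a transcript start inside the annotated gene. The bases before the outer end of these genes were not searched. A match of letters is a description of the sequence and not of binding, and binding was not measured in this study.

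Trib3 encodes a pseudokinase that binds ATF4 and the kinase AKT and restrains both, and its transcript is one of the late outputs of the pathway. On the brightest of its 3 probe sets the signals were 489 and 454 on the basal TRAP arrays and 221 and 115 on the TRAP arrays. In the PTX experiment they were 531 and 554 on the basal arrays and 191 and 188.5 after stimulation. In the thrombin experiment they were 201.5 and 224 on the basal arrays and 209 and 232 after thrombin. Stimulated and basal arrays did not overlap in either TRAP experiment, and overlapped in the thrombin experiment.

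The change of this probe set was -1.46 ± 0.20 (SE) with TRAP (limma, adjusted p = 8.13e-04), a 2.76-fold difference, and -1.44 ± 0.20 with TRAP after PTX (limma, adjusted p = 0.00121). With thrombin it was 0.05 ± 0.20 (95% interval -0.38 to 0.47, adjusted p = 0.935 in limma). Leaving out the 2 arrays that stood outside their set left a single stimulated array in each TRAP experiment. The TRAP change was then -1.89 and the change with TRAP after PTX -1.45. The order of the group means was 543 ± 16 (SD, n = 2) in basal PTX-experiment cells, 471 ± 25 in basal TRAP cells, 220 ± 16 with thrombin, 213 ± 16 in basal thrombin cells, 190 ± 1.6 with TRAP after PTX and 168 ± 75 with TRAP. The arrays of the 4 lowest groups overlapped in part, and the 2 higher groups overlapped with none.

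The other Trib3 probe sets were also lower after stimulation in both TRAP experiments. The probe set of middle brightness had signals of 338 and 255 in basal TRAP cells, 209.9 and 125 with TRAP, 403 and 413 in basal cells of the PTX experiment and 88.4 and 111 with TRAP after PTX. It fell by 1.88 ± 0.22 with TRAP after PTX (limma, adjusted p = 3.41e-04), and its change with TRAP, -0.80 ± 0.22, did not pass (adjusted p = 0.0638). The TRAP change did pass when the array set was a term of the fit, at -1.04 (limma, adjusted p = 0.0105). Without the 2 arrays outside their set, which left a single TRAP array, it was -1.14. With these 2 arrays left out the change with TRAP after PTX was -1.735. The dimmest probe set had 306 and 307 in basal TRAP cells, 136 and 124.5 with TRAP, 525 and 207 in basal cells of the PTX experiment and 131 and 145 with TRAP after PTX. Its falls of 1.14 ± 0.27 and 1.18 ± 0.27 (limma, adjusted p = 0.0315 and 0.0375) depended on single arrays. The TRAP call was lost without any 1 of the 2 basal TRAP and 2 TRAP arrays (limma, adjusted p = 0.0953 to 0.178). The change with TRAP after PTX was -0.54 without basal PTX-experiment replicate 1 and -1.81 without replicate 2 (limma, adjusted p = 0.0863 and 8.62e-05). Without both arrays outside their set neither fall passed (-1.199 and -1.11, limma, adjusted p = 0.117 and 0.197). The call with TRAP after PTX was also lost without either array of TRAP after PTX, basal TRAP or thrombin (adjusted p = 0.0543 to 0.175). The 2 basal arrays of the PTX experiment differed more than 2-fold on it, which they did not on the other Trib3 probe sets. With thrombin this probe set went from 109 and 121 to 235.5 and 222, without overlap, and the change of 0.90 ± 0.27 missed the threshold (limma, adjusted p = 0.0798). It passed in 3 of 23 alternative settings, without either basal array of the PTX experiment (limma, adjusted p = 0.00107 and 9.09e-04) and with the compared groups alone (adjusted p = 0.00747).

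Chac1 encodes an enzyme that breaks down glutathione and is a sensitive ATF4 target. Its signals were 576 and 597.5 in basal TRAP cells and 277 and 196 with TRAP. They were 735 and 681 in basal cells of the PTX experiment and 273 and 310.0 with TRAP after PTX, and 263 and 259.5 in basal thrombin cells and 311 and 365 with thrombin. The stimulated arrays lay below both basal arrays in each TRAP experiment and above both in the thrombin experiment.

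Chac1 fell by 1.27 ± 0.14 with TRAP (limma, adjusted p = 1.77e-04) and by 1.24 ± 0.14 with TRAP after PTX (limma, adjusted p = 2.71e-04). Its change with thrombin, 0.35 ± 0.14, did not pass (limma, adjusted p = 0.203). Without the 2 arrays outside their set, which left a single stimulated array in each TRAP experiment, the changes were -1.505 and -1.15. By group mean the order was 708 ± 38 (SD, n = 2) in basal PTX-experiment cells, 587 ± 15 in basal TRAP cells, 338 ± 38 with thrombin, 291 ± 26 with TRAP after PTX, 261 ± 2.7 in basal thrombin cells and 237 ± 57 with TRAP. The arrays of the lowest 2 groups overlapped, and those of TRAP overlapped those of TRAP after PTX as well.

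Sesn2 encodes sestrin 2, which restrains the growth kinase complex mTORC1 when leucine is short and is induced by ATF4 and by p53. The brighter of its 2 probe sets gave 725 and 776 in basal TRAP cells and 371 and 255 with TRAP. It gave 822 and 771 in basal cells of the PTX experiment and 360.1 and 422 with TRAP after PTX, and 579 and 564 in basal thrombin cells and 498 and 526 with thrombin. All 4 arrays with TRAP lay below all 4 basal arrays of the TRAP experiments and below the 4 arrays of the thrombin experiment.

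This probe set fell by 1.24 ± 0.14 with TRAP (limma, adjusted p = 2.12e-04) and by 1.00 ± 0.14 with TRAP after PTX (limma, adjusted p = 0.00152), and changed by -0.15 ± 0.14 with thrombin (adjusted p = 0.637). Without the 2 arrays outside their set, which left a single stimulated array in each TRAP experiment, the changes were -1.499 and -0.89. The dim second probe set gave 91.5 to 144 on the 4 basal arrays of the TRAP experiments, 54.0 to 64.5 on the 4 stimulated ones and at most 27.1 in the thrombin experiment. Its changes of -0.83 and -0.82 in the TRAP experiments missed the threshold (limma, adjusted p = 0.0592 and 0.0749), as they did without the 2 arrays outside their set (-0.90 and -0.73, adjusted p = 0.170 and 0.320).

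**Figure D1:**
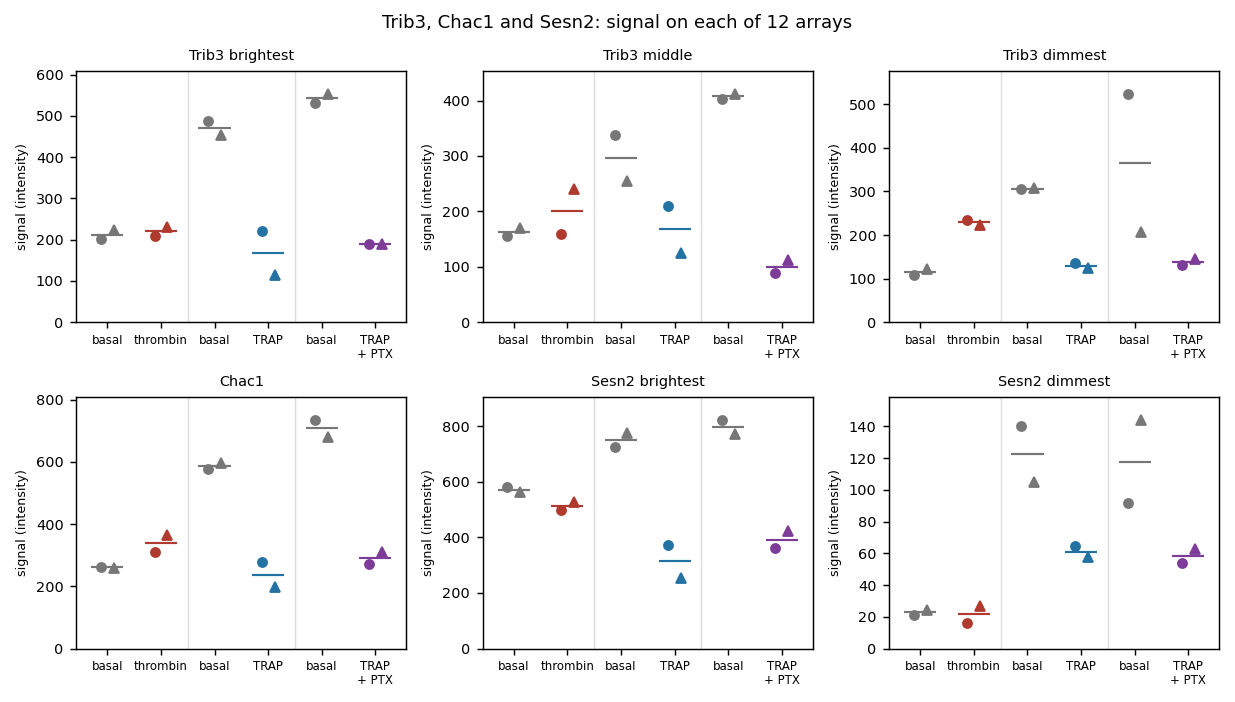
Signal (intensity, linear axis from 0) of the 3 Trib3, 1 Chac1 and 2 Sesn2 probe sets on each of the 12 arrays, by group; circles are replicate 1, triangles replicate 2 and lines the mean of 2. Basal arrays of both TRAP experiments lie above the stimulated ones in every panel. The arrays of the thrombin experiment lie lower than the basal arrays of the TRAP experiment without PTX. On the dimmest Trib3 probe set both thrombin arrays (235.5 and 222) lie above replicate 2 of the basal PTX-experiment arrays (207).

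Atf4 and Ddit3, regulators within the pathway, did not pass the test in any single response. Atf4, the transcription factor at its centre, had signals of 3940.4 and 4327.5 in basal TRAP cells, 4165 and 3576 with TRAP, 5127.5 and 4562 in basal cells of the PTX experiment and 3837 and 4302 with TRAP after PTX. In the thrombin experiment the basal arrays had 3858 and 3451 and the thrombin arrays 3903 and 3898. Basal and stimulated arrays overlapped with TRAP, and lay apart with TRAP after PTX, lower, and with thrombin, higher, by small margins. The changes were 0.10 ± 0.11 with thrombin, -0.10 ± 0.11 with TRAP and -0.25 ± 0.11 with TRAP after PTX, and none passed the test (limma, adjusted p = 0.717, 0.740 and 0.258). The 95% interval of the TRAP change, -0.33 to 0.14, excludes a fall as large as that of Chac1.

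Ddit3 encodes CHOP, a C/EBP-type factor that ATF4 induces and that promotes cell death under lasting stress. Its signals were 356 and 367 in basal TRAP cells, 337 and 246.0 with TRAP, 442 and 487 in basal cells of the PTX experiment and 272 and 335 with TRAP after PTX. In the thrombin experiment the basal arrays had 461 and 337 and the thrombin arrays 282 and 411. The stimulated arrays were lower than both basal arrays in the TRAP experiments and overlapped them with thrombin. The changes of -0.20 with thrombin, -0.31 with TRAP and -0.59 with TRAP after PTX did not pass singly (limma, adjusted p = 0.650, 0.463 and 0.123). Averaged over the 3 responses Ddit3 fell by 0.37 ± 0.11 (limma, adjusted p = 0.0406), a call that 14 of 22 alternative settings did not make, among them leaving out any 1 of 8 arrays (adjusted p up to 0.118).

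Ppp1r15a encodes GADD34, the phosphatase subunit that removes the phosphate from eIF2 and so ends the response. It was the 1 probe set of 13 that rose with thrombin, and 0 fell, where 2.63% of all tested probe sets were higher and 2.10% lower. Its signals were 441 and 384.5 in basal thrombin cells and 1029 and 933 with thrombin. They were 303 and 314 in basal TRAP cells, 336 and 393.0 with TRAP, 336.0 and 401 in basal cells of the PTX experiment and 359.0 and 439 with TRAP after PTX. Both thrombin arrays stood above the other 10 arrays by more than 2-fold.

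Ppp1r15a rose by 1.22 ± 0.13 with thrombin (limma, adjusted p = 1.04e-04), a 2.33-fold difference. With TRAP its change was 0.22 ± 0.13 and with TRAP after PTX 0.11 ± 0.13, and neither passed (limma, adjusted p = 0.435 and 0.717). Its promoter window, chr1:105139597-105139846 on the minus strand of GRCr8, is shown because it was the 1 of the 10 that held the cyclic AMP response element TGACGTCA, which is the same on both strands and is in capitals.
Ppp1r15a: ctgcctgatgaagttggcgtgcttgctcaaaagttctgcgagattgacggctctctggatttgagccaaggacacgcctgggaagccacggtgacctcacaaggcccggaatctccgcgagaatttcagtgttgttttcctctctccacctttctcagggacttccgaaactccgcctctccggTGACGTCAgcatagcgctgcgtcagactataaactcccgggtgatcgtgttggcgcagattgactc
The element begins 66 bases before the annotated start and occurs in 1.59% of the 33469 windows. Another motif, the endoplasmic reticulum stress element (CCAAT, 9 bases, CCACG), was in none of the 10 windows and in 0.0657% of all windows.

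The enzymes and transporters that supply amino acids did not pass the test in any single response. Asns, which makes asparagine, and Psat1, which makes a precursor of serine, are textbook ATF4 targets. Asns had 1693.5 and 1876 in basal TRAP cells, 1794 and 1474 with TRAP, 1889.6 and 1676 in basal cells of the PTX experiment and 1602 and 1998.5 with TRAP after PTX. With thrombin its 2655 and 2519 overlapped the basal 2991 and 2580.5, so basal and stimulated arrays overlapped in all 3 experiments. The TRAP change was -0.13 ± 0.13 (95% interval -0.41 to 0.14).

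Psat1 had 4252 and 4938 in basal TRAP cells, 4069 and 4095 with TRAP, 4390.3 and 3964 in basal cells of the PTX experiment and 4168 and 4645 with TRAP after PTX. The thrombin arrays had 3527 and 3162 beside basal 3837.5 and 3419. The TRAP arrays lay just below their basal arrays, and the other experiments overlapped. Its changes ran from -0.17 to 0.08 over the 3 responses.

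Slc7a5 encodes LAT1, the light chain of the main leucine transporter, and Slc7a11 the cystine carrier xCT that feeds glutathione synthesis. Slc7a5 had 991 and 1022 in basal TRAP cells but 1362 and 863 with TRAP, and 1307 and 1270.1 in basal cells of the PTX experiment but 1126 and 1765 with TRAP after PTX. In the thrombin experiment it had 553 and 521 at the basal level and 713 and 475.5 with thrombin. The 2 arrays of each stimulated group lay on either side of their basal arrays, and the changes were 0.11, 0.11 and 0.13, each ± 0.22. In the TRAP experiments the higher array of each stimulated group was in the second set of arrays and the lower in the first. The Slc7a5 change without the 2 arrays outside their set turned to -0.22 with TRAP and was 0.45 with TRAP after PTX. When the array set was a term of the fit it was -0.22 and 0.45, none past the threshold (limma, adjusted p = 0.717, 0.319, 0.583 and 0.175). Slc7a11 kept to 263.7 to 296 on the 4 arrays of the thrombin experiment and to 154.5 to 207 on the 8 arrays of the TRAP experiments, with changes of 0.08, -0.20 and 0.05. Among these 4 genes the lowest adjusted p in a single response was 0.494 (Slc7a11 with TRAP, limma).

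With the 2 arrays outside their set left out, none of the probe sets of Atf4, Ddit3, Ppp1r15a, Asns, Psat1, Slc7a5 and Slc7a11 passed in either TRAP response (limma, adjusted p = 0.285 and above). The changes with TRAP and with TRAP after PTX were then -0.21 and -0.17 for Atf4, -0.525 and -0.45 for Ddit3 and 0.33 and 0.25 for Ppp1r15a. They were -0.27 and 0.17 for Asns, -0.16 and 0.155 for Psat1 and -0.32 and 0.09 for Slc7a11. Each of these 6 kept the direction it had with all arrays.

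**Figure D2:**
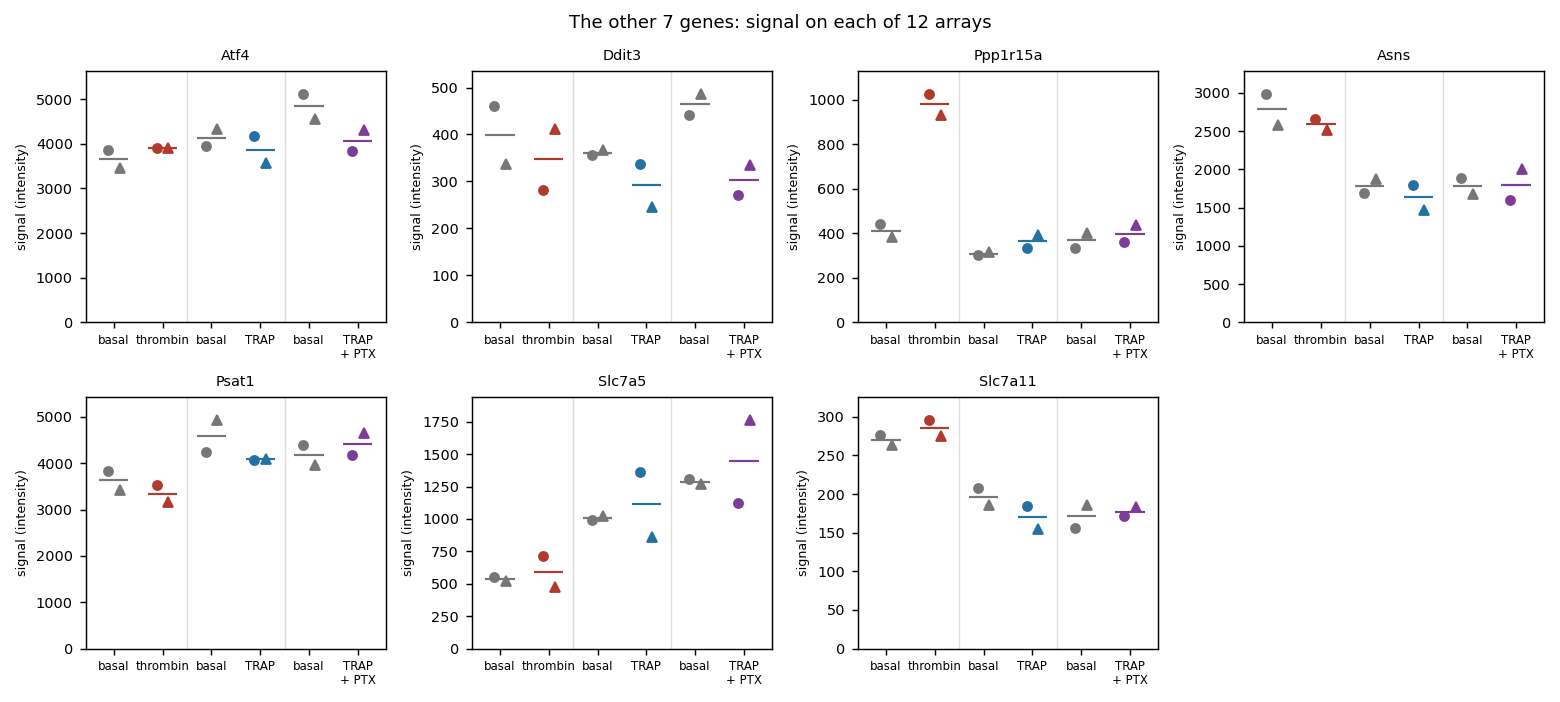
Signal (intensity, linear axis from 0) of the other 7 genes on each of the 12 arrays, by group; circles are replicate 1, triangles replicate 2 and lines the mean of 2. Both thrombin arrays of Ppp1r15a (1029 and 933) stand above its other 10 arrays, and the basal and stimulated arrays of Asns and Slc7a5 overlap in each experiment.

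Averaged over the 3 responses, 7 of the 13 probe sets passed, 6 lower and 1 higher, against 13.2% of all tested probe sets in either direction, 7.62% lower and 5.55% higher. The lower ones were 2 of Trib3, both of Sesn2 and those of Chac1 and Ddit3, and the higher one was Ppp1r15a (0.52 ± 0.07, limma, adjusted p = 4.79e-04). For Trib3, Chac1 and Sesn2 the average joins thrombin changes from -0.15 to 0.90, none of which passed, with 2 TRAP responses, so it describes none of the 3 experiments alone.

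The fall with TRAP was set against thrombin by testing the difference of the 2 responses, each taken from its own basal arrays. Of the 13 probe sets 5, of 4 genes, differed, and 5 of 5 were higher with thrombin, against 0.532% of all tested probe sets in either direction. The median difference was 0.77 for the 13 and 0.00 for all. Chac1 differed by 1.62 ± 0.20 (limma, adjusted p = 0.00260), Trib3 by 1.51 ± 0.28 and 2.05 ± 0.38 on its brightest and its dimmest probe set (limma, adjusted p = 0.0271 and 0.0293), Sesn2 by 1.09 ± 0.20 and Ppp1r15a by 1.00 ± 0.18 (limma, adjusted p = 0.0271 for both). Chac1, Trib3 and Sesn2 passed with TRAP alone among these 2 responses, and Ppp1r15a with thrombin alone.

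The call for Chac1 was made in 23 of 23 alternative settings. That for the brightest Trib3 probe set was made in 15 of 23, for the dimmest Trib3 probe set in 12, for Sesn2 in 14 and for Ppp1r15a in 15, with differences that kept their sign. Leaving out 1 array took the count of 5 to 2 without basal thrombin replicate 1 or 2, to 1 without either basal TRAP or either thrombin array, and to 3 without TRAP replicate 1 or 2. Leaving out both arrays outside their set left a single TRAP array. Chac1 then differed by 1.85, the brightest Trib3 probe set by 1.94 and the brighter Sesn2 probe set by 1.34. Ppp1r15a at 0.89 and the dimmest Trib3 probe set at 2.10 missed the threshold. Atf4, Ddit3, Asns, Psat1, Slc7a5 and Slc7a11 did not differ at the threshold, and their differences lay between 0.01 and 0.28. Nor did the Trib3 probe set of middle brightness (1.05, limma, adjusted p = 0.203) or the dim one of Sesn2 (0.77, adjusted p = 0.426).

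**Figure D3:**
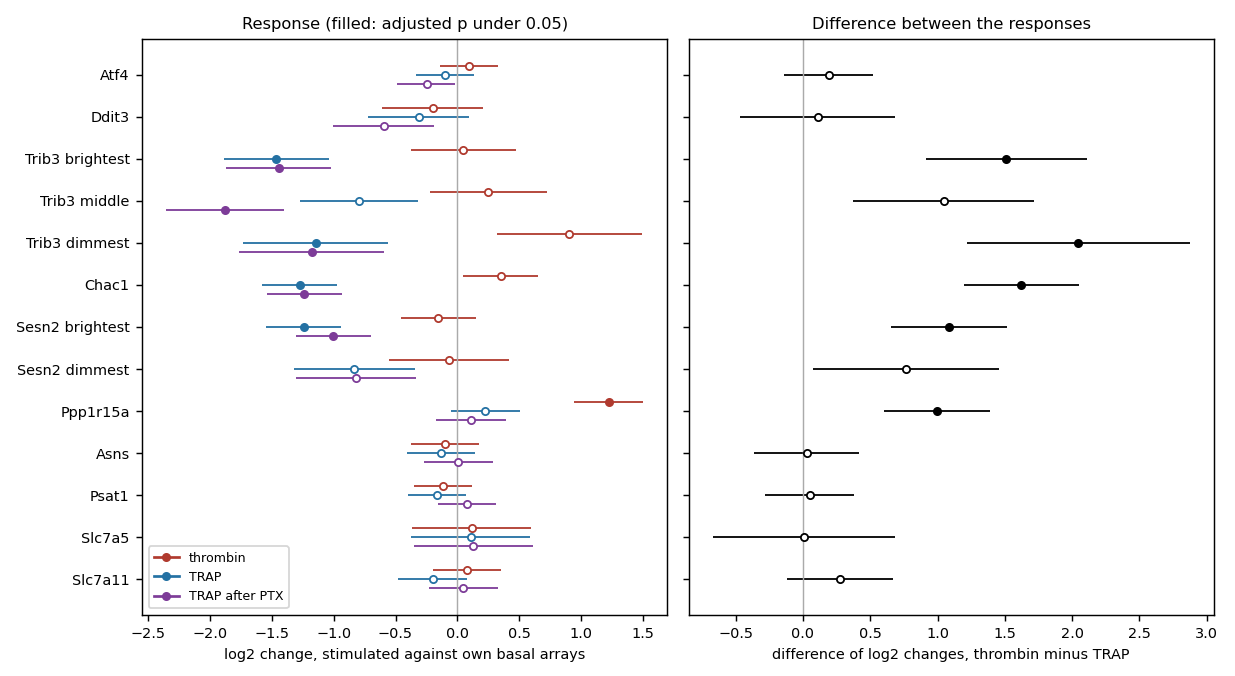
Left, log2 change of each of the 13 probe sets in the 3 responses; right, thrombin minus TRAP difference of log2 changes. Points are limma estimates with 95% intervals, filled where the adjusted p was under 0.05; the TRAP and TRAP after PTX points of Trib3, Chac1 and Sesn2 lie left of 0 and the thrombin point of Ppp1r15a lies right of it at 1.22.

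**Figure D4:**
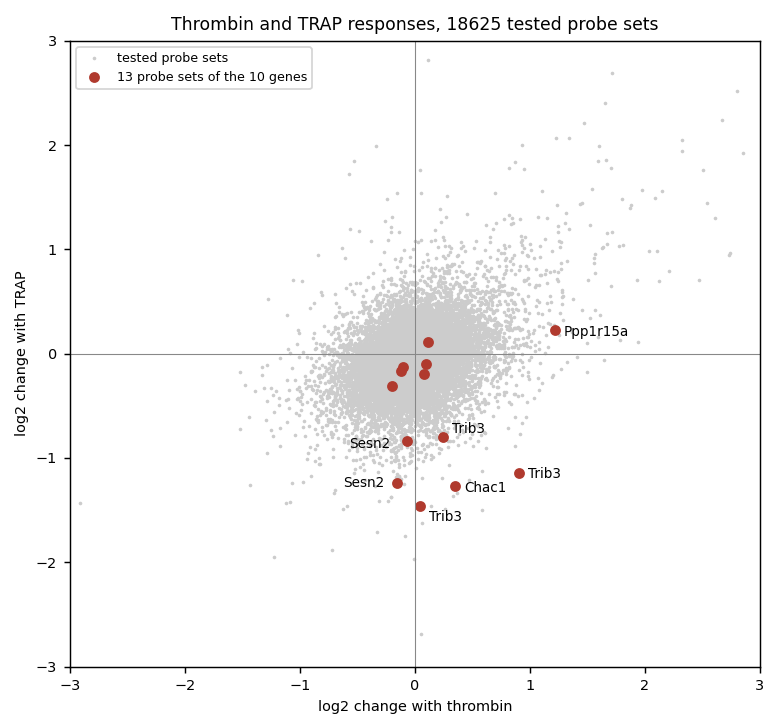
log2 change with TRAP (y axis) against log2 change with thrombin (x axis) for the 18625 tested probe sets in grey and the 13 of the list in red, with 7 probe sets beyond the plotted range of 3. Trib3, Chac1 and Sesn2 lie low, with thrombin changes from -0.15 to 0.90, and Ppp1r15a lies to the right at 1.22 with a TRAP change of 0.22.

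Where these genes started from differed between the experiments. In basal cells of the thrombin experiment, 8 probe sets were lower and 3 higher than in basal cells of the TRAP experiment, 11 of 13, where 40.7% of all tested probe sets differed in either direction. The count was 7 without basal thrombin replicate 1 or basal TRAP replicate 2, and the call of the brighter Sesn2 probe set was made in 11 of 23 alternative settings. The dim Sesn2 probe set had the larger difference, at 21.4 and 24.5 beside 140 and 105 (-1.82 ± 0.23, limma, adjusted p = 3.09e-05), and was called in 22 of 22. Chac1 was lower by 1.12 ± 0.14 on the log2 scale, the brightest Trib3 probe set by 1.09 ± 0.20, Slc7a5 by 0.89 ± 0.22, the brighter Sesn2 probe set by 0.38 ± 0.14 and Psat1 by 0.34 ± 0.11 (limma, adjusted p = 3.31e-05, 6.03e-04, 0.00594, 0.0436 and 0.0233). Asns was higher by 0.64 ± 0.13, Slc7a11 by 0.43 ± 0.13 and Ppp1r15a by 0.40 ± 0.13 (limma, adjusted p = 0.00140, 0.0168 and 0.0254). Atf4 and Ddit3 did not differ at the threshold (adjusted p = 0.214 and 0.647).

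For Trib3 and Chac1 the basal level of the thrombin experiment was already close to the level that the TRAP experiments reached after stimulation. The brightest Trib3 probe set had 201.5 and 224 in basal thrombin cells and 115 to 221 on the 4 arrays with TRAP, and Chac1 had 263 and 259.5 beside 196 to 310.0. The brighter Sesn2 probe set, at 579 and 564, lay between the basal and the stimulated arrays of the TRAP experiments, and the dim one, at 21.4 and 24.5, lay below the stimulated arrays (54.0 to 64.5). Other groups of genes separated the experiments in the same basal cells: the summed signal of 4 cell division genes was 1249.5 to 1402 on the 4 arrays of the thrombin experiment and 1852 to 3483 on the other 8, with all 4 genes kept and above 0. The fibroblast gene Pdgfra had 41.5 to 71.1 beside 234.8 to 390.0, and 5 fibroblast markers, of which 4 were kept, summed to 4793.5 to 5066 beside 5966 to 6761. Of 6 smooth muscle markers 5 (Acta2, Cnn1, Myh11, Mylk and Tagln) were lower in basal cells of the thrombin experiment than of the TRAP experiment and 0 higher, with a median of -0.78 on the log2 scale. Their 6 signals summed to 9574 and 10109 in basal thrombin cells, 11393 and 13179 with thrombin and 14548 to 18980.5 on the other 8 arrays. Cnn1 had 992 and 822 beside 1807 and 1980.0 (-1.05, limma, adjusted p = 3.30e-06), and it rose with thrombin (0.63, adjusted p = 0.00247). Cd14 (0.75), Tek (0.85), Lcn2 (3.655) and C3 (2.39) were higher in basal thrombin cells (limma, adjusted p = 3.26e-04, 0.0101, 0.00408 and 0.0230). Of 5 inflammation genes 3 (C3, Lcn2 and Pla2g2a) were higher there and 0 lower. Saa3 did not pass, nor did Lbp, with 490.1 and 470.7 beside 625.5 and 641.9 in basal TRAP cells. The part of these basal differences in the different responses of Trib3, Chac1 and Sesn2 was not tested, and the experiment and the stimulus cannot be told apart.

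The TRAP responses with and without PTX were compared by their difference. It passed for 0 of 13 probe sets by limma, 1 of them at an unadjusted p under 0.05, against 0.129% of all tested probe sets. It was 0.02 ± 0.28 for the brightest Trib3 probe set (95% interval -0.58 to 0.62), 0.04 ± 0.20 for Chac1 (-0.39 to 0.46) and 0.24 ± 0.20 for Sesn2 (-0.19 to 0.67). The Trib3 probe set of middle brightness had the widest difference, -1.08 ± 0.31 (limma, adjusted p = 0.273), with a deeper fall after PTX, and the other 2 Trib3 probe sets at 0.02 and -0.03 did not share it. Without the 2 arrays outside their set 0 of 13 passed as well, with differences of 0.44 for the brightest and -0.60 for the middle Trib3 probe set, 0.355 for Chac1, 0.61 for the brighter Sesn2 probe set and 0.67 for Slc7a5 (limma, adjusted p = 0.700, 0.804, 0.809, 0.320 and 0.606). The 2 arrays bear the TRAP and the TRAP after PTX label, and since an exchange of these labels cannot be settled, what the difference measures depends on it. The intervals leave room for differences up to about the size of the limits given, so they do not show that the responses were alike.

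Other genes of the pathway were described from lists of its branches. Among 18 further ATF4 and CHOP targets bright enough to test, of 20 on the array, Atf3 (1.07, adjusted p = 0.00238) and Vegfa (0.65, adjusted p = 0.00505) rose with thrombin and 0 fell (limma). The shares of all tested probe sets were 2.63% higher and 2.10% lower with thrombin, and 1.84% and 2.07% with TRAP. Atf3 is a stress-induced repressor of the same bZIP family, with 108 and 77.5 in basal thrombin cells and 195 and 227 with thrombin. Cebpb, a C/EBP factor, was the 1 that rose with TRAP (0.42, limma, adjusted p = 0.0426, and 0.106 to 0.325 without any 1 of the 4 arrays compared), and 0 passed with TRAP after PTX. The median of the 18 was -0.03, -0.07 and -0.19 in the 3 responses, beside -0.06, -0.03 and -0.04 for all genes.

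In the average of the responses Atf3 and Cebpb rose, and Jdp2 (-0.44), Herpud1 (-0.32), Bbc3 (-0.29) and Pck2 (-0.26) fell (limma, adjusted p = 0.00853, 0.0128, 0.0130 and 0.0430). Thus 2 of 18 were higher and 4 lower, where 5.55% of all tested probe sets were higher and 7.62% lower. Pck2 lost its call in 15 of 22 alternative settings. Herpud1 acts in the degradation of proteins of the endoplasmic reticulum, Bbc3 encodes the death protein PUMA, Pck2 is a mitochondrial enzyme of phosphoenolpyruvate synthesis and Jdp2 a bZIP repressor. None of the 18 differed between thrombin and TRAP at the threshold.

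Among genes of amino acid supply 3 passed with thrombin or TRAP, too few to be read as a result beside the shares of all tested probe sets that passed (2.63% higher and 2.10% lower with thrombin, 1.84% and 2.07% with TRAP). Of 9 enzymes of serine, glycine and one-carbon metabolism 1 rose with thrombin and 0 fell. This was Mthfd1l, a mitochondrial enzyme of formate synthesis, at 261 and 512 in basal cells and 891 and 1066.5 with thrombin (1.37, limma, adjusted p = 0.00355; 0.91 without basal thrombin replicate 1 and, without thrombin replicate 2, adjusted p = 0.0503), and none of the 9 passed with TRAP. Of 8 transporters tested, the arginine and lysine carrier Slc7a1 rose with thrombin (0.41) and with TRAP (0.38) (limma, adjusted p = 0.0126 and 0.0230), and 0 fell. Its TRAP call was lost without any 1 of the 4 arrays compared (adjusted p = 0.0790 to 0.155) and its thrombin call without replicate 2 of either group. Of 14 aminoacyl-tRNA synthetases, Eprs1 fell with TRAP (-0.49, limma, adjusted p = 0.0248, and up to 0.208 without basal TRAP replicate 1 or 2 or TRAP replicate 2) and none passed with thrombin. Of 5 enzymes of proline, alanine and branched-chain metabolism none passed in a single response. No gene of these 4 lists passed with TRAP after PTX. In the average Mthfd1l (0.81) and Slc7a1 (0.31) rose and the transporter Slc38a1 (-0.28) fell. Each kept its call in 22 of 22 alternatives (limma, adjusted p = 0.00147, 9.90e-04 and 0.00439). Bcat1, of the 5, rose (0.185) and Mars1, of the 14, fell (-0.215), but lost these calls in 11 and 9 of 22. Among all tested probe sets 5.55% were higher and 7.62% lower.

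Upstream of Atf4 1 gene passed in a single response, too few to be read as a result. With thrombin 2.10% of all tested probe sets were lower. Of 15 genes for eIF2 kinases, the eIF2 phosphatase, eIF2B and their partners, Nck1, an adaptor that binds the eIF2 phosphatase, fell with thrombin (-0.47, limma, adjusted p = 0.0138, and up to 0.130 without basal thrombin replicate 1 or thrombin replicate 1 or 2) and none passed with TRAP or TRAP after PTX. The 4 eIF2 kinases Eif2ak1, Eif2ak2, Eif2ak3 and Eif2ak4 did not pass in any response. In the average of the responses 2 of the 15 fell and 0 rose, where 7.62% of all tested probe sets were lower and 5.55% higher. These were Nck1 (-0.38) and Eif2b4 (-0.35) (limma, adjusted p = 5.98e-04 and 0.00331). Each kept this call in 22 of 22 alternative settings. Of 21 genes of the ATF6 and XBP1 branches of the unfolded protein response none passed in a single response. Xbp1 (0.23) and Edem1 (0.23), 2 of the 21, rose in the average (limma, adjusted p = 0.0199 and 0.0450). In the average 5.55% of all tested probe sets were higher. Hspa5, the chaperone BiP, changed by 0.01, 0.17 and 0.23 in the 3 responses.

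Targets of NRF2, the factor of the oxidative stress response that shares Slc7a11 with ATF4, were described from the same kind of list. Of 13 tested, Srxn1 rose with thrombin (0.59), Nfe2l2, the gene of NRF2 itself, rose with TRAP (0.54), and Nqo1 (1.22), Srxn1 (0.81) and Nfe2l2 (0.52) rose with TRAP after PTX, and 0 fell in any of them (limma, adjusted p = 0.0351, 0.00403, 0.00108, 0.0103 and 0.00758). Among all tested probe sets 2.63% were higher with thrombin, 1.84% with TRAP and 1.68% with TRAP after PTX. Without any 1 of the 4 arrays of its own comparison the thrombin call of Srxn1 was lost. Its TRAP after PTX call was lost without basal replicate 2 or stimulated replicate 1 of that experiment. That of Nfe2l2 was lost without replicate 2 of either group, and its TRAP call without basal TRAP replicate 2. Nqo1, a quinone reductase, had 896 and 981 in basal cells of the PTX experiment and 2296 and 2124 with TRAP after PTX. In the average Hmox1 (0.74), Srxn1 (0.65), Nqo1 (0.59), Txnrd1 (0.43) and Nfe2l2 (0.36) rose, 5 of 13, where 5.55% of all tested probe sets were higher. None of the genes of these 8 lists passed in the thrombin minus TRAP difference or in the PTX effect.

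**Figure D5:**
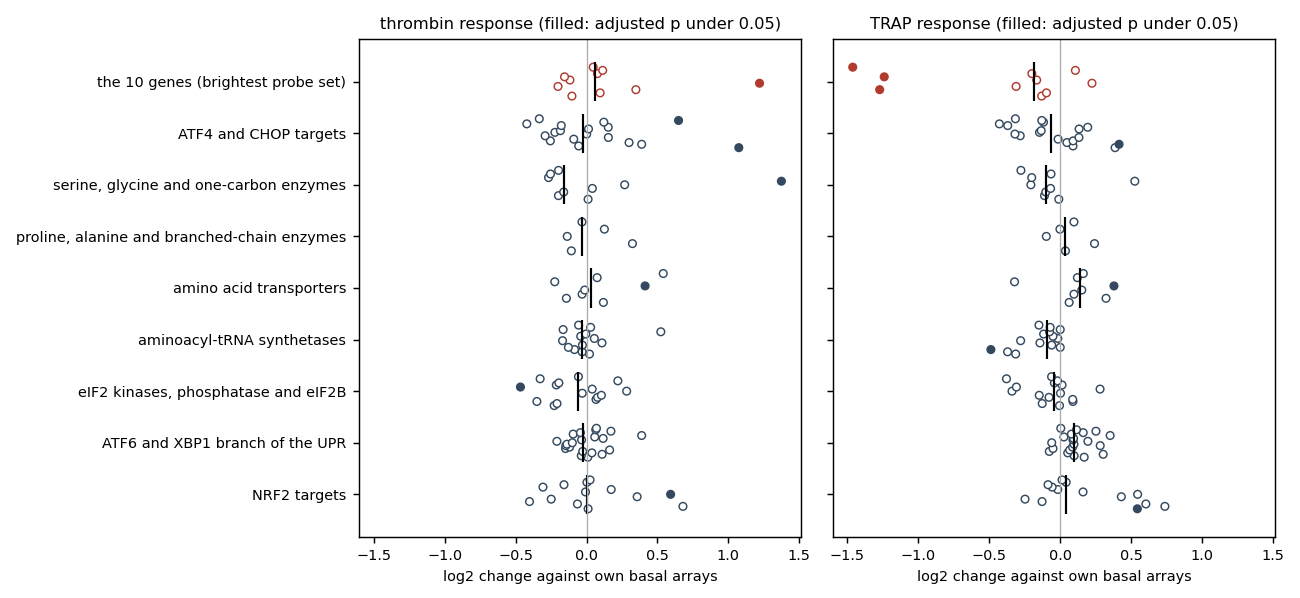
log2 change with thrombin (left) and with TRAP (right) of the genes of the list (red, each by its brightest probe set) and of 8 further lists, 1 point per gene, filled where the adjusted p was under 0.05, with a black line at each list's median. The 3 red points far to the left with TRAP are Trib3, Chac1 and Sesn2, and the filled red point with thrombin is Ppp1r15a.

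The genes whose pattern over the 12 arrays was most like that of Trib3 were found by the root mean square difference of log2 values, each taken relative to the mean of its own basal group. Within the list, Chac1 (0.199) and Sesn2 (0.242) were closer to Trib3 than any other gene. Outside it the 5 closest were Kcne4 (0.270), a potassium channel subunit, Boc (0.355), a co-receptor of hedgehog signalling, Cables1 (0.367), Fgf9 (0.381) and Otub2 (0.384). The 5 closest to Chac1 were Boc (0.281), Klf7 (0.343), Kcne4 (0.348), Traf5 (0.356) and Ston2 (0.364), with Trib3 (0.199) and Sesn2 (0.230) closer. Kcne4 changed by -0.34, -1.27 and -1.40 with thrombin, TRAP and TRAP after PTX, and Boc by 0.00, -0.85 and -1.16. Likeness was measured over 12 arrays that share basal groups and is given as a description. Trib3 and Chac1 were taken as references because they had the widest fall in earlier results of these data. A gene with a similar fall comes out close by this measure, so closeness is no separate evidence.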

How the data were processed

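Biotin-labelled copies of total RNA from 12 samples were read on 1-colour Affymetrix arrays. The signals deposited by the authors are an intensity, not logged, and came from GCOS 1.4 per the submitters' processing notes. On each array their mean without the lowest and highest 2% is close to 200. Detection calls were not used here, and no genome build is given in the sources used here.

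The pseudocount was 16. After 57 control probe sets were left out, 18625 of 31042 probe sets were tested, those whose average log2 signal exceeded its 40th percentile. Of all probe sets 20826 have 1 symbol in the annotation, 436 several and 9780 none, and the 13 used for the 10 genes matched the current rat annotation. For the other lists a gene is its brightest tested probe set. One limma model (version 3.58.1, R 4.3.3) with a coefficient for each of the 6 groups gave all tests (lmFit and eBayes, variance trend by intensity, 6 residual and 7.50 prior degrees of freedom, 2-sided). With 2 arrays in each group, precision is limited by their number. The fit was also run on simulated data, whose outcome is not given here. That simulation had independent noise on each array and no sets of arrays, so it does not cover the sets seen in these data.

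The 10 genes, the 8 further lists, the contrasts and the alternatives were chosen with earlier results of these data known. Every probe set of the 10 genes is reported. From each further list come the numbers passing in the single responses and in their average. Genes among the 6 with the smallest p in the average response are given by name. The comparison of basal cells is given for some of these lists only. Vegfa, Eprs1, Slc3a2, Hspa5 and the eIF2 kinases, where outside that rule, were named after their values were seen, as was any other single gene that passed. The 5 genes most like Trib3 and Chac1 were named by rule. The alternatives changed the pseudocount, the filter, the scaling, the variance trend, the blocks (replicate number, set of arrays) and the arrays in the fit. An array alone in its group was taken to vary as arrays in other groups did.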

Additional observations from a re-analysis of the deposited data

Results flagged for a closer look

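Of the 13 probe sets 5 responded differently to thrombin and to TRAP by the test of the difference between the responses. The thrombin minus TRAP difference on the log2 scale was 2.05 on the dimmest and 1.51 on the brightest Trib3 probe set, 1.62 for Chac1, 1.09 for Sesn2 and 1.00 for Ppp1r15a. The experiments also differed at the basal level of these genes, and the part of that in the differences was not tested.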

How the results depend on the processing

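The 13 probe sets were refitted in the 7 contrasts under the alternatives. With the other probe sets of Trib3 and Sesn2 also set in place of the brightest, this gave 2094 values. Of these 1980 stayed on their side of the threshold, 100 lost a call and 14 gained one. The sign changed for 72 values, which passed in neither setting, and a called value never changed sign. The brightest probe sets of Trib3 and Sesn2 and that of Chac1 fell with TRAP and with TRAP after PTX in 23 of 23 alternatives, as did the Trib3 probe set of middle brightness with TRAP after PTX, and Ppp1r15a rose with thrombin in 23 of 23. The dimmest Trib3 probe set lost its TRAP call in 7 of 23 and its TRAP after PTX call in 12 of 23, which included leaving out both arrays that stood outside their set (limma, adjusted p = 0.117 and 0.197). The count of probe sets passing for thrombin was 1, and 2 with the compared groups alone or over a range of 1 to 2 with an array left out. For thrombin minus TRAP it was 5, and 2 with no filter on dim probe sets, 1 with no intensity trend, 3 with both arrays outside their set left out, and 1 to 5 with 1 array left out. For the basal cells it was 11, and 7 to 11 with 1 array left out, 7 without basal thrombin replicate 1 or basal TRAP replicate 2. The cause was not tested. With the replicate block the counts were 1 for thrombin, 4 for TRAP, 5 for TRAP after PTX, 6 for the average, 5 for thrombin minus TRAP, 0 for the PTX effect and 10 for the basal cells. Replicate 1 minus replicate 2 correlated between basal and stimulated arrays with r = 0.134 (thrombin), 0.104 (TRAP) and 0.0217 (TRAP after PTX), so the numbers were not taken as pairs. Over all probe sets the calls were 882 for thrombin (342 to 1054 under the alternatives), 727 for TRAP (208 to 892), 505 for TRAP after PTX (149 to 581), 2453 for the average (1628 to 2754), 99 for thrombin minus TRAP (23 to 140), 24 for the PTX effect (0 to 47) and 7584 for the basal cells (5228 to 7854). Centring the arrays on the median moved the split of higher to lower calls from 490 and 392 to 608 and 261 for thrombin, from 342 and 385 to 434 and 263 for TRAP, from 313 and 192 to 412 and 127 for TRAP after PTX, and from 1034 and 1419 to 1456 and 794 for the average. Among the other lists, Cebpb lost its TRAP call in 11 of 23 alternatives, Srxn1 its thrombin call in 10, and Pck2 and Edem1 theirs in the average in 15 of 22, while Atf3 kept its thrombin call and Nqo1 its TRAP after PTX call in 23 of 23.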

Other observations

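The further lists also differed between the basal cells of the thrombin and the TRAP experiment, where 40.7% of all tested probe sets did. Of 8 amino acid transporters 4 were lower in the thrombin experiment, with Slc3a2, the heavy chain that partners Slc7a5, at 2324 and 1880.4 beside 3050.2 and 3394 (-0.62 on the log2 scale, limma, adjusted p = 0.00490), and 1 was higher. Of 14 aminoacyl-tRNA synthetases 5 were lower and 2 higher, and of 18 ATF4 and CHOP targets 5 were lower and 6 higher. Of 13 NRF2 targets 5 were higher and 1 lower, with Nqo1 at 1811.5 and 2845 beside 1195.5 and 1350.3 (0.83, limma, adjusted p = 0.00118). Slc3a2 and Slc7a5 were thus both lower in the basal cells in which Asns and Slc7a11 were higher.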
